A study of Rattus norvegicus with 10 samples.

Results

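Interferon-stimulated genes are the genes that a cell switches on when interferon binds its surface. The set described here held 49 rat symbols, comprising the receptor chains for interferon, the transcription factors that carry its signal and the genes they induce. For each symbol the RNA record with the highest mean count was taken, and records with a total of at least 44 counts over the libraries were kept. Of the 49, 44 had a record and all of these reached that total. The other 5, Ifnar2, Ddx58, Zbp1, Samd9l and Xaf1, matched no row and were not analysed here. Expression was measured by poly-A mRNA sequencing of tissue with CA3 and dentate gyrus from the left hippocampus of adult male Sprague-Dawley rats, each rat processed on its own. The 5 TBI rats had received a lateral fluid percussion injury, a pressure pulse of 3.32 atm onto the intact dura, and the 5 sham rats the same anesthesia and craniectomy without the pulse. All were killed 3 months after surgery. The injured animals were not monitored by EEG, so epilepsy was not established in them. Depth and tissue composition are given below because they bear on the members.

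Type I interferons bind a receptor of Ifnar1 and Ifnar2, and interferon gamma a receptor of Ifngr1 and Ifngr2. The type I receptor acts through Jak1 and Tyk2, and Stat2 and Irf9 are parts of the complex that binds the interferon-stimulated response element (ISRE) in promoters. Interferon gamma acts on promoters through the gamma-activated site (GAS), and induces Irf1 and the guanylate-binding proteins. In brain, microglia, astrocytes and endothelium can all respond, and most of the induced proteins restrict viruses or sense foreign nucleic acid.

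Pieces of promoter with an ISRE core are shown because many members share the core. Most members were listed as genes induced by interferon, so a high share of cores is built into the list. It says nothing about the injury. The core searched was GAAA, any 2 bases and GAAA again, on both strands, in RefSeq windows of 250 bases before and 50 after a start (build GRCr8, which is not the build of the reads). The matched bases are in capitals. A match on the other strand reads TTTC, any 2 bases and TTTC. The first 6 belong to members with an unadjusted p under 0.05. Oas1a and Oas1b are neighbours with log2 changes of 1.09 and -0.18, and of these only Oas1a had such a p. Ifit3 and Isg20 had a core, log2 changes of 0.18 and -0.02, and no such p.
Gbp2 (chr2:234005671-234005730, plus strand): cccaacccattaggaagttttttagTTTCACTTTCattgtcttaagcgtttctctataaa
Ifitm2 (chr1:205482347-205482406, minus strand): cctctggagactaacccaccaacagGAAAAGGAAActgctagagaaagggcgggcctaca
Ifitm3 (chr1:205541768-205541827, minus strand): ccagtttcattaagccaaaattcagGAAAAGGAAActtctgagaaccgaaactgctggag
Irgm (chr10:33742578-33742637, minus strand): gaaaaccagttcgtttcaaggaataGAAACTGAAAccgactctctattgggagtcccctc
Bst2 (chr16:18255058-18255123, minus strand): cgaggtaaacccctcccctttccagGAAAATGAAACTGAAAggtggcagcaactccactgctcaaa
Parp14 (chr11:78408033-78408092, plus strand): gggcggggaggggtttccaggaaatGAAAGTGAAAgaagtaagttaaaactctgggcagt
Oas1a (chr12:41330400-41330465, plus strand): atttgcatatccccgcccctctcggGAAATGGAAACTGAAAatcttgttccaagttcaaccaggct
Oas1b (chr12:41395871-41395936, minus strand): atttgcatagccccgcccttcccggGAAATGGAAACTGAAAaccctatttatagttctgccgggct
Ifit3 (chr1:241527257-241527316, plus strand): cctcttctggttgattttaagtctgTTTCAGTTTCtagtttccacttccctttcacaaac
Isg20 (chr1:142239942-142240001, plus strand): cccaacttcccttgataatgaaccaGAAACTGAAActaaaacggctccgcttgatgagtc

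A core lay in 22 of the 38 member windows (57.9%), against 3.92% of the 33469 windows in the table. The cores of Gbp2, Ifitm2 and Irgm began at positions -31, -33 and -34 from the start site. Oas1a, Oas1b and Bst2 each held a pair of overlapping cores. The GAS letters TTCNNNGAA were in 11 of the 38 windows (28.9%), against 8.87% of all windows. Among tested members a core was found in 12 of 16 with an unadjusted p under 0.05 and in 9 of 19 without. The GAS letters were in 7 of these 16 and 3 of these 19. Within the 16, the median log2 change was 0.585 with a core and 0.594 without. The windows of Oas1a and Oas1b were identical at 235 of 319 aligned columns (73.7%). A match is a description of the letters and not a binding site. Irf2, Ddx58, Dhx58, Zbp1, Adar, Ifit2, Mx2, Ifitm1, Rtp4, Isg15 and Usp18 had no entry in the table.

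Counts on RNA records ran from 23425817 to 31671838 per library. Outside ribosomal RNA they ran from 12686398 to 24735107, with means of 17169500 in sham and 22866900 in TBI rats (exact permutation test, two-sided, p = 0.0238). Ribosomal RNA took 59.0% and 58.5% of the counts of sham replicates 4 and 5 and 12.5% to 26.2% of those of the other 8 rats. This share differed between the groups (exact permutation test, two-sided, p = 0.0238), with 38.7% ± 18.3 (SD, n = 5) for sham and 19.7% ± 5.23 (SD, n = 5) for TBI. Markers of dentate gyrus and CA3 summed to 336 to 415 in sham and 323 to 436 in TBI rats (CPM, counts scaled by library size with TMM factors). Single markers were less even. Prox1 was 9.55 CPM in sham replicate 1, 25.7 to 41.4 CPM in the other sham rats and 11.4 to 28.9 CPM in TBI rats. C1ql2 (33.4 CPM), Calb1 and Neurod1 were also lowest of the sham rats in that rat, whereas Grik4, Bok and Nectin3 were highest. The part of dissection in the members' differences was not tested. In 2 rats the members lay nearer to the other group than to their own. Sham replicate 3 was nearer the mean of the TBI rats in 34 of 44 members, and TBI replicate 3 nearer that of the sham rats in 35. Counts are therefore also given without each of these rats.

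The comparison of TBI with sham rats asked which members differ 3 months after injury. The members were mostly higher in TBI, and the smallest p-values were those of Gbp2, a guanylate-binding protein, with a log2 change of 1.23, and Ifitm2, a membrane protein that hinders virus entry, with 0.65. The largest log2 change was that of Oasl, at 1.30. Of the 44, 38 had a positive log2 change (TBI over sham) and 6 a negative one, with a median of 0.46 against -0.01 over the 22431 rows tested. By the quasi-likelihood test of edgeR with Benjamini-Hochberg adjustment, 0 members and 0% of all rows had an adjusted p under 0.05. The smallest adjusted p of any row was 0.477, so each member below is a candidate only. A p not called adjusted is the unadjusted p of the same test. At an unadjusted p under 0.05, 20 of the 44 members were higher in TBI (45.5%), against 4.89% of all rows, and 0 were lower, against 3% of all rows. Members and lists were chosen with earlier results of these data known. The study's own list of genes higher after TBI already held Gbp2, Ifitm2, Ifitm3, Ifi27, Mx2, Irf9 and Bst2. The excess over all rows is therefore a description and not independent support. At an unadjusted p under 0.001 the higher members were Gbp2 and Ifitm2, against 0.156% of all rows. The groups did not overlap in 1 member, Ifi27, which was higher in TBI, against 0.499% of all rows, and in 0 members lower in TBI, against 0.424%. Gbp2 was the 1 member with an adjusted p under 0.05 in DESeq2 and in edgeR's exact test run without robust estimation.

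The count of 20 varied with the rats included and with the handling of ribosomal RNA. It was 9 without TBI replicate 2 (against 3.56% of all rows in that fit), 11 without sham replicate 1 (4.44%), 12 without sham replicate 2 (3.27%), sham replicate 4 (3.67%) or TBI replicate 1 (4.17%), and 13 without sham replicate 5 (3.83%). It was 25 without sham replicate 3 or TBI replicate 3, where the share over all rows was 7.03% and 5.88%. Gbp2 had an adjusted p under 0.05 (edgeR, quasi-likelihood) once TBI replicate 3 was dropped. The count was 10 without sham replicates 4 and 5 (22.7%, against 3.30% of all rows) and 6 with the ribosomal RNA share as a covariate (13.6%, against 2.45%). Those 6 were Irf9, Ifih1, Ifitm2, Ifitm3, Gbp2 and Irgm. Whichever rat was dropped (10 fits), 8 of the 20 kept a p under 0.05, namely Irf9, Oas1a, Oasl, Ifitm2, Ifitm3, Gbp2, Irgm and Ifi27.

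**Figure D1:**
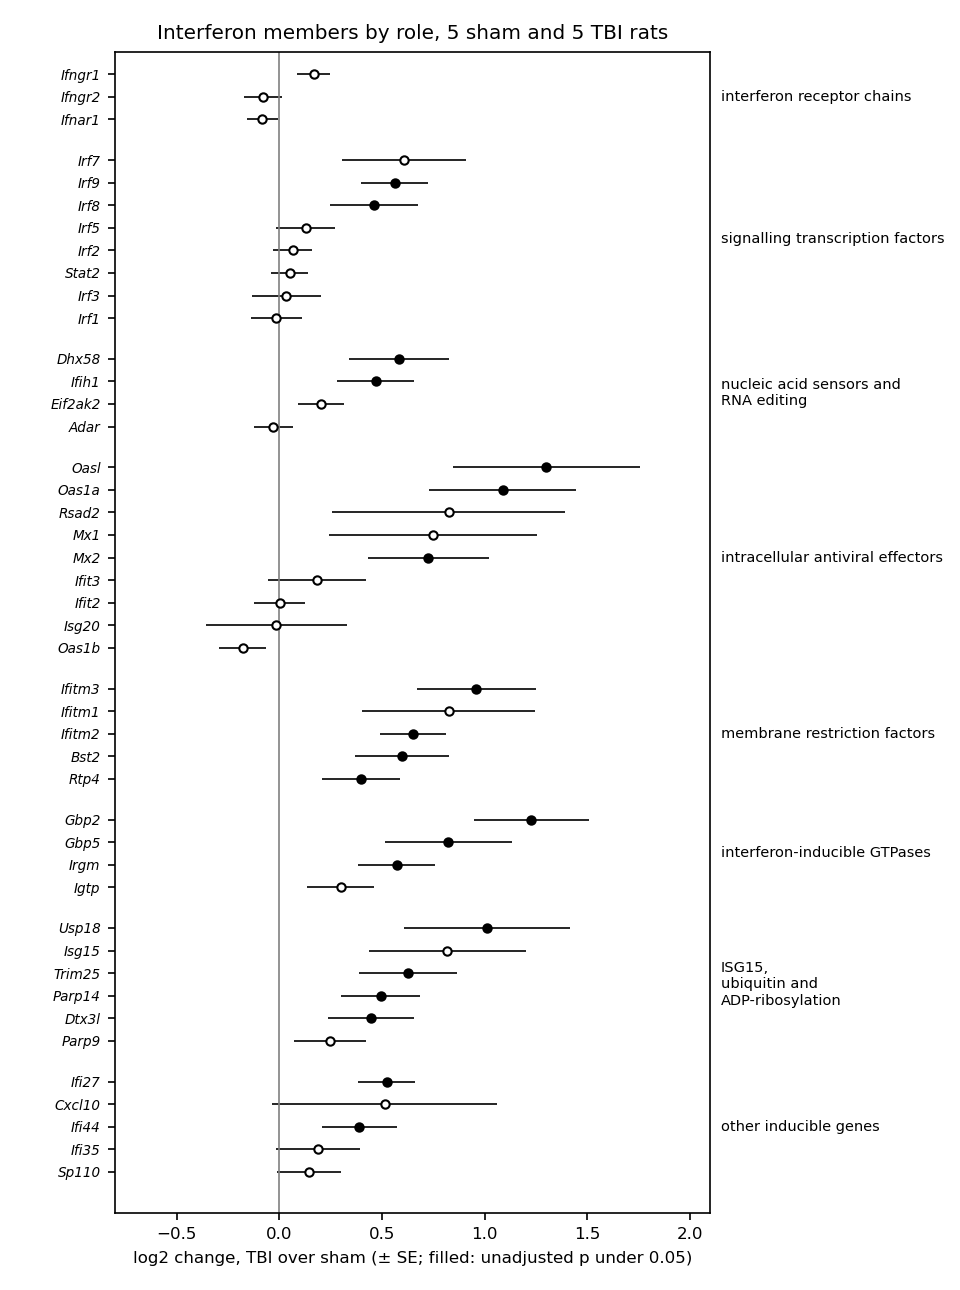
Log2 change of the 44 members (TBI over sham, 5 rats per group) on the x axis, ordered by role, with bars of 1 standard error from edgeR's quasi-likelihood fit and filled points for an unadjusted p under 0.05. The GTPases and membrane factors all lie to the right of 0, while the receptor chains and most transcription factors lie near it.

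**Figure D2:**
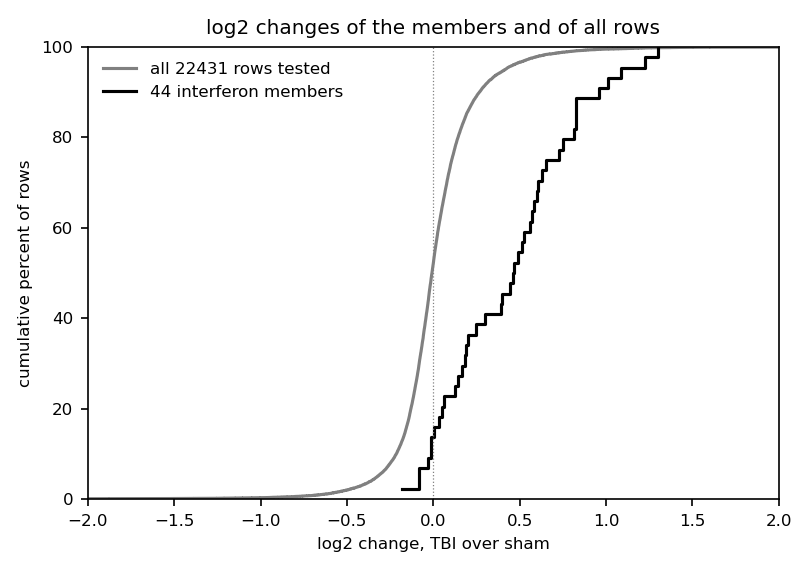
Cumulative percent of rows (y axis) against log2 change (TBI over sham, x axis, without the ends of the range) for the 44 members and for all 22431 rows tested. The member curve lies to the right, with a median of 0.46 against -0.01.

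The receptor chains showed no call, with log2 changes from -0.08 to 0.17 and a median of -0.08. Ifngr1 was 29.1, 29.1, 30.99, 30.2 and 24.7 CPM in sham replicates 1 to 5 and 34.6, 34.98, 28.9, 31.4 and 32.03 CPM in TBI replicates 1 to 5. TBI replicates 1, 2, 4 and 5 were above every sham rat, and TBI replicate 3 lay inside the sham range. The log2 change of this interferon gamma receptor chain was 0.17 ± 0.0819 (SE; Benjamini-Hochberg adjusted p = 0.641, edgeR). Ifnar1 read 21.1, 23.2, 20.8, 23.4 and 22.5 CPM in the sham rats and 21.7, 21.4, 20.7, 20.7 and 20.2 CPM in the TBI rats, in the order of the replicates. All 5 TBI rats were below the sham mean, but the ranges overlapped. The type I receptor chain had a log2 change of -0.08 ± 0.0739 (SE; Benjamini-Hochberg adjusted p = 0.831, edgeR). Ifngr2 was 48.00, 37.4, 37.1, 38.7 and 32.5 CPM in sham replicates 1 to 5 and 35.2, 36.2, 34.4, 41.7 and 36.1 CPM in TBI replicates 1 to 5. Sham replicate 1 was the highest of all rats and every TBI rat was inside the sham range. The log2 change was -0.08 ± 0.0939 (SE; Benjamini-Hochberg adjusted p = 0.877, edgeR). With scaling by total counts the changes of Ifnar1 and Ifngr2 took the opposite sign, and that scaling shifted the median of all rows from -0.01 to 0.50.

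Among the 8 transcription factors the median was 0.10, and Irf9 and Irf8 had a p under 0.05. Irf9 read 5.84, 5.68, 5.78, 6.86 and 6.75 CPM in the sham rats and 9.74, 13.1, 6.86, 6.51 and 8.91 CPM in the TBI rats, in the order of the replicates. TBI replicates 1, 2 and 5 were above every sham rat, and TBI replicates 3 and 4 were inside the sham range. Irf9, the DNA-binding part of the type I complex, had a log2 change of 0.56 ± 0.163 (SE; Benjamini-Hochberg adjusted p = 0.483, edgeR). Its partner Stat2 had no call. Stat2 was 31.9, 28.3, 27.9, 24.5 and 23.9 CPM in sham replicates 1 to 5 and 30.3, 30.99, 26.3, 26.02 and 28.2 CPM in TBI replicates 1 to 5. The TBI values all lay inside the sham range, and the log2 change was 0.05 ± 0.0893 (SE; Benjamini-Hochberg adjusted p = 0.924, edgeR). Irf7 read 2.87, 2.34, 3.96, 2.85 and 2.94 CPM in the sham rats and 4.99, 8.14, 3.61, 2.25 and 3.83 CPM in the TBI rats, in the order of the replicates. TBI replicates 1 and 2 were above every sham rat, whereas TBI replicate 4 was the lowest of the 10. Irf7, which drives type I interferon genes and is itself induced by interferon, had a log2 change of 0.61 ± 0.303 (SE; Benjamini-Hochberg adjusted p = 0.670, edgeR). Irf1 was 5.96, 5.64, 4.91, 5.44 and 5.93 CPM in sham replicates 1 to 5 and 5.91, 6.78, 4.55, 4.71 and 5.57 CPM in TBI replicates 1 to 5. The TBI range enclosed the sham range, and this factor of the interferon gamma response had a log2 change of -0.01 ± 0.123 (SE; Benjamini-Hochberg adjusted p = 0.991, edgeR). Irf8, a factor of the microglial lineage, had a log2 change of 0.46, and those of Irf5, Irf2 and Irf3 were 0.13, 0.06 and 0.03.

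Of the 4 genes of nucleic acid sensing and RNA editing, 2 had a p under 0.05. Dhx58 and Ifih1, which bind viral RNA in the cytosol, had log2 changes of 0.58 and 0.47. The highest single value of Ifih1 was that of sham replicate 5. Eif2ak2, the kinase that halts translation on double-stranded RNA, had 0.20, and Adar, which edits adenosine in RNA, had -0.03.

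The 9 intracellular effectors had the widest range, from -0.18 for Oas1b to 1.30 for Oasl, with a median of 0.73 and 3 members with a p under 0.05. Oas1a was 0.281, 0.395, 1.07, 0.612 and 0.562 CPM in sham replicates 1 to 5 and 1.07, 2.02, 0.675, 0.885 and 1.53 CPM in TBI replicates 1 to 5. TBI replicates 2 and 5 were the highest, TBI replicate 1 and sham replicate 3 were almost equal, and the groups overlapped. Oas1a, an oligoadenylate synthetase that activates the nuclease RNase L, had a log2 change of 1.09 ± 0.358 (SE; Benjamini-Hochberg adjusted p = 0.487, edgeR). Oasl read 0.0936, 0.180, 0.390, 0.204 and 0.125 CPM in the sham rats and 0.580, 0.984, 0.323, 0.221 and 0.414 CPM in the TBI rats, in the order of the replicates. TBI replicates 1, 2 and 5 were above every sham rat, at only 116 counts over the 10 libraries. The log2 change of this related protein was 1.30 ± 0.456 (SE; Benjamini-Hochberg adjusted p = 0.507, edgeR). Oas1b, beside Oas1a on chromosome 12 and with the same double core, had a log2 change of -0.18 and no call, and its sign turned with scaling by total counts, under which all 44 members were positive. How reads that match more than 1 record were counted is not stated in the sources used here, and the identity of these transcripts was not measured.

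Mx2, a dynamin-like GTPase, had a log2 change of 0.73 and a p under 0.05. Mx1 was 0.499, 0.0719, 0.390, 0.340 and 0.375 CPM in sham replicates 1 to 5 and 0.377, 1.22, 0.235, 0.253 and 0.699 CPM in TBI replicates 1 to 5. TBI replicates 2 and 5 were above every sham rat, and the other three lay inside the sham range. Mx1, which blocks virus nucleocapsids, had a log2 change of 0.75 ± 0.506 (SE; Benjamini-Hochberg adjusted p = 0.755, edgeR). Rsad2 read 0.218, 0.826, 2.14, 0.476 and 1.25 CPM in the sham rats and 2.44, 2.90, 0.704, 1.04 and 1.76 CPM in the TBI rats, in the order of the replicates. TBI replicates 1 and 2 were the highest, with sham replicate 3 next. Rsad2, also called viperin, had a log2 change of 0.82 ± 0.567 (SE; Benjamini-Hochberg adjusted p = 0.771, edgeR). Ifit3 was 0.624, 0.898, 0.975, 1.02 and 1.12 CPM in sham replicates 1 to 5 and 1.04, 1.54, 0.704, 1.01 and 0.829 CPM in TBI replicates 1 to 5. TBI replicate 2 alone was above the sham range and the log2 change was 0.18 ± 0.241 (SE; Benjamini-Hochberg adjusted p = 0.895, edgeR). Ifit2 and Isg20 had log2 changes of 0.00 and -0.02.

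All 5 membrane restriction factors had positive log2 changes, and 4 had a p under 0.05. Ifitm2 was 1.90, 1.80, 2.63, 1.97 and 1.69 CPM in sham replicates 1 to 5 and 3.19, 3.72, 2.38, 3.19 and 3.37 CPM in TBI replicates 1 to 5. TBI replicate 3 was the only TBI rat not above every sham rat. The means were 1.998 CPM ± 0.370 (SD, n = 5) in sham and 3.17 CPM ± 0.494 (SD, n = 5) in TBI rats. Ifitm2 had a log2 change of 0.65 ± 0.161 (SE; Benjamini-Hochberg adjusted p = 0.477, edgeR). Ifitm3 read 2.09, 2.37, 3.74, 4.01 and 2.25 CPM in the sham rats and 6.17, 6.92, 2.82, 4.05 and 7.74 CPM in the TBI rats, in the order of the replicates. TBI replicates 1, 2 and 5 were well above the sham rats, TBI replicate 4 just above them and TBI replicate 3 among them. The log2 change of Ifitm3 was 0.96 ± 0.291 (SE; Benjamini-Hochberg adjusted p = 0.487, edgeR). Bst2 was 3.90, 3.13, 6.24, 3.87 and 3.998 CPM in sham replicates 1 to 5 and 8.41, 7.98, 4.05, 4.62 and 7.15 CPM in TBI replicates 1 to 5. Sham replicate 3 was above TBI replicates 3 and 4, and the other 4 sham rats were below all TBI rats. Bst2, or tetherin, which holds budding virus at the membrane, had a log2 change of 0.60 ± 0.231 (SE; Benjamini-Hochberg adjusted p = 0.565, edgeR). Ifitm1, and Rtp4, a chaperone of membrane receptors, had log2 changes of 0.83 and 0.40.

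The interferon-inducible GTPases, which attack the vacuoles of intracellular microbes, had a median of 0.70, and 3 of 4 had a p under 0.05. Gbp2 read 1.28, 1.33, 1.95, 1.29 and 1.62 CPM in the sham rats and 5.25, 4.60, 1.67, 2.47 and 3.57 CPM in the TBI rats, in the order of the replicates. TBI replicate 3 lay inside the sham range and the other 4 TBI rats lay above it. The means were 1.49 CPM ± 0.291 (SD, n = 5) in sham and 3.51 CPM ± 1.47 (SD, n = 5) in TBI rats. Gbp2 had a log2 change of 1.23 ± 0.280 (SE; Benjamini-Hochberg adjusted p = 0.477, edgeR), the smallest p of the members. Gbp5 was 0.562, 0.754, 1.88, 0.952 and 1.37 CPM in sham replicates 1 to 5 and 2.09, 2.90, 1.11, 1.61 and 1.99 CPM in TBI replicates 1 to 5. Sham replicate 3 was above TBI replicates 3 and 4, and the groups overlapped. Gbp5 had a log2 change of 0.82 ± 0.310 (SE; Benjamini-Hochberg adjusted p = 0.548, edgeR). Irgm read 1.78, 2.59, 2.76, 3.19 and 2.75 CPM in the sham rats and 4.32, 5.32, 2.70, 3.26 and 3.47 CPM in the TBI rats, in the order of the replicates. TBI replicate 3 was inside the sham range and TBI replicate 4 was just above it. Irgm had a log2 change of 0.57 ± 0.187 (SE; Benjamini-Hochberg adjusted p = 0.487, edgeR), and Igtp one of 0.30.

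The ISG15, ubiquitin and ADP-ribosylation genes had a median of 0.56, and 4 of 6 had a p under 0.05. Trim25 was 1.62, 1.33, 2.44, 1.09 and 1.12 CPM in sham replicates 1 to 5 and 3.07, 3.35, 1.67, 2.09 and 1.99 CPM in TBI replicates 1 to 5. Sham replicate 3 was above TBI replicates 3, 4 and 5, and the other sham rats were below all TBI rats. Trim25, a ubiquitin ligase of the RNA sensor pathway, had a log2 change of 0.63 ± 0.237 (SE; Benjamini-Hochberg adjusted p = 0.548, edgeR). Parp14 read 3.06, 2.77, 4.13, 2.58 and 2.69 CPM in the sham rats and 4.49, 6.68, 3.17, 3.73 and 3.65 CPM in the TBI rats, in the order of the replicates. The same was seen here, with sham replicate 3 above TBI replicates 3, 4 and 5 and the other sham rats below every TBI rat. Parp14 had a log2 change of 0.49 ± 0.194 (SE; Benjamini-Hochberg adjusted p = 0.555, edgeR). Isg15 was 0.624, 1.11, 1.72, 1.43 and 1.75 CPM in sham replicates 1 to 5 and 2.38, 3.96, 1.20, 1.11 and 2.64 CPM in TBI replicates 1 to 5. TBI replicates 1, 2 and 5 were above every sham rat and TBI replicates 3 and 4 inside the sham range. Isg15, the ubiquitin-like modifier, had a log2 change of 0.82 ± 0.382 (SE; Benjamini-Hochberg adjusted p = 0.637, edgeR). Usp18, which removes Isg15 and dampens the receptor, had 1.01, and Dtx3l and Parp9, which act as a pair, had 0.45 and 0.25.

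Of the other inducible genes, Ifi27 and Ifi44 had a p under 0.05. Ifi27 read 105, 93.7, 81.7, 75.4 and 53.3 CPM in the sham rats and 115, 126, 109, 107 and 131 CPM in the TBI rats, in the order of the replicates. The lowest TBI rat, replicate 4, was above the highest sham rat, replicate 1, so the groups did not overlap. The lowest values were those of sham replicates 4 and 5, the libraries rich in ribosomal RNA. The means were 81.8 CPM ± 19.5 (SD, n = 5) in sham and 118 CPM ± 10.2 (SD, n = 5) in TBI rats. Ifi27, a mitochondrial protein, had a log2 change of 0.52 ± 0.139 (SE; Benjamini-Hochberg adjusted p = 0.478, edgeR). With the ribosomal RNA covariate its log2 change was 0.24 and its p was no longer under 0.05, while without sham replicates 4 and 5 it was 0.34 and its p stayed under 0.05. Cxcl10 was 0.156, 0.0719, 0.747, 0.340 and 0.0625 CPM in sham replicates 1 to 5 and 0.696, 0.559, 0.176, 0.285 and 0.362 CPM in TBI replicates 1 to 5. Sham replicate 3 was the highest of all rats for this chemokine, and the log2 change was 0.51 ± 0.548 (SE; Benjamini-Hochberg adjusted p = 0.866, edgeR). Ifi44, Ifi35 and Sp110 had 0.39, 0.19 and 0.14.

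**Figure D3:**
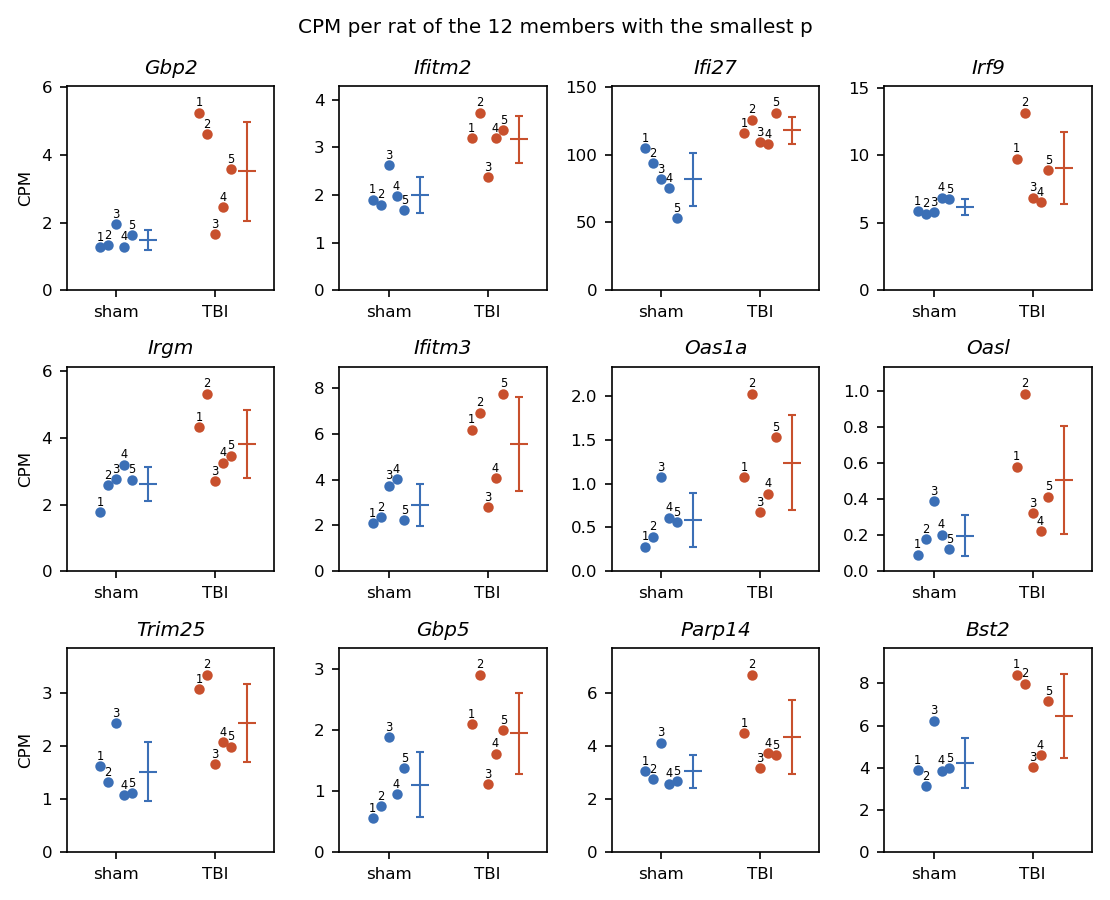
CPM (y axis, from 0) of the 12 members with the smallest p in each rat, numbered by replicate, with the mean and SD of 5 rats beside each group. The groups are apart for Ifi27 and overlap in the other 11, often through sham replicate 3 or TBI replicate 3.

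Each rat was also given a score, taken as the mean over members of log2 CPM less each gene's mean over the 10 rats. The score was -0.40, -0.33, 0.15, -0.22 and -0.26 in sham replicates 1 to 5 and 0.39, 0.62, -0.19, -0.02 and 0.24 in TBI replicates 1 to 5. TBI replicates 1, 2 and 5 were above every sham rat, sham replicate 3 was above TBI replicates 3 and 4, and the difference of the means was 0.42. TBI replicate 2 was the highest of the 10 rats in 23 of the 44 members. Sham replicate 1 was the lowest in 15. Sham replicate 3 was the highest sham rat in 25 members, and TBI replicate 3 the lowest TBI rat in 29. By role the difference of the means was largest for the GTPases (0.68) and membrane factors (0.62), and was 0.01 for the receptor chains. Without sham replicate 3, 8 of the 44 members were higher in TBI with no overlap of the groups, against 2.41% of all rows. Without TBI replicate 3 there were 7, against 1.72%. These 2 rats were picked out by the members' own values, so a rise on leaving them out was built in. Leaving out any other single rat gave 1 or 2 members, against 0.691% to 1.11% of all rows.

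**Figure D4:**
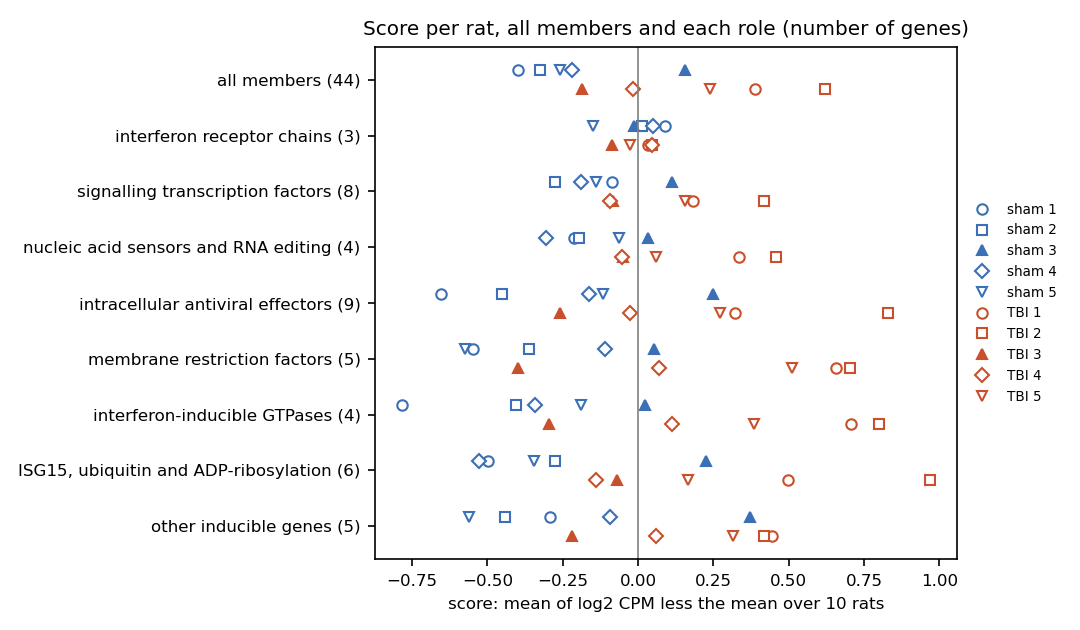
Score of each rat (x axis, mean centred log2 CPM) over all members and each role, with the number of genes in parentheses; sham rats are blue, TBI rats orange, and replicate 3 of each group is filled. Sham replicate 3 lies at or near the top of the sham rats and TBI replicate 3 at or near the bottom of the TBI rats in most roles.

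Other genes of the pathway were taken from fixed lists. Of the 24 tested genes of interferons, sensing and signalling, 5 were higher at a p under 0.05 (20.8%, against 4.89% of all rows). At that p 0 were lower, against 3% of all rows, and the median was 0.19. Socs1, which inhibits the receptor kinases, had a log2 change of 0.59 (p under 0.05). The kinases Jak1 and Tyk2 had -0.09 and 0.12 and did not reach that p. Ptpn6 and Myd88 had 0.36 and 0.29. Of 34 tested genes in a further list of interferon-inducible genes, 4 were higher at that p (11.8%, against 4.89% of all rows). Here too 0 were lower, and the median was 0.26. Among them Lgals9, Sp140 and Lgals3bp had 0.35, 0.62 and 0.35. With the ribosomal RNA covariate 0 of the 58 genes of both lists were higher at a p under 0.05, against 2.45% of all rows. Of the 8 interferon genes listed, 5 had a row, and these were at or near 0 counts. Ifnb1, Ifng, Ifna2 and Ifna4 had 0 counts in every library, which allows up to 3 counts per library, and Ifnk had 2 counts in all.

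Markers of cell types that can carry interferon-stimulated genes were examined in the same fit, with 0 past an adjusted p of 0.05. The counts below are to be read beside the shares over all rows at an unadjusted p under 0.05. These shares were 4.89% higher and 3% lower. Of 16 microglia markers, 8 had a p under 0.05 and were higher in TBI, with a median log2 change of 0.26, among them Tyrobp (0.62). Their summed CPM was 293 to 442 in sham and 346 to 495 in TBI rats. Sham replicate 3 had the highest sum of the sham rats and TBI replicate 3 the lowest of the TBI rats, as in the member score. This was also so for the sums of the astrocyte and infiltrating cell markers. A score over the infiltrating cell list, taken as for the members, went otherwise. Sham replicate 4 was the highest sham rat (-0.02, replicate 3 -0.13). TBI replicate 4 was the lowest TBI rat (-0.25, replicate 3 0.03). Of 9 astrocyte markers 3 had a p under 0.05 and were higher, the list median was 0.17, and the sum was 3022 to 3994 in sham and 3319 to 4867 in TBI rats. Gfap, with a log2 change of 0.82, was 1016 CPM in sham and 1800.1 CPM in TBI rats on average, so it made up much of the difference in that sum. Of 22 markers of infiltrating myeloid and lymphoid cells, 8 reached 44 counts and 1, Cd4, had a p under 0.05 and was higher. The sum over these 8 was 13.99 to 21.2 in sham and 18.2 to 28.4 in TBI rats, with means of 18.7 and 24.7. Cd4 (means 5.31 and 8.85 CPM) and Lyz2 (9.59 and 11.2 CPM) made up most of it. Cd2 and Lyve1 had log2 changes of -0.29 and -0.19. The other 14 had no row or fewer than 44 counts, among them Cd3d with 6 and Ccr2 with 19. Of 11 markers of endothelium and pericytes 1 was higher at that p (9.09%). Of 10 markers of meninges and choroid plexus 4 were (40%), and of 10 of the oligodendrocyte lineage 2 were (20%). Of 7 tested markers of dentate gyrus and CA3 0 were. The median log2 change was 0.06 for endothelium and pericytes, 0.05 for the oligodendrocyte lineage and -0.06 for dentate gyrus and CA3. For meninges and choroid plexus it was 0.46, with 9 of 10 markers positive, beside 0.46 for the members. The 5 blood markers had a median of 0.32, with 1 higher at that p, Alas2 (0.51). Of 11 neuron markers 0 were higher and 2 were lower at that p, Gad1 (-0.46) and Gad2 (-0.46), and the median was -0.06. The part of these cell types in the members' differences was not tested, and in bulk tissue more cells of a type and more RNA per cell cannot be told apart.

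**Figure D5:**
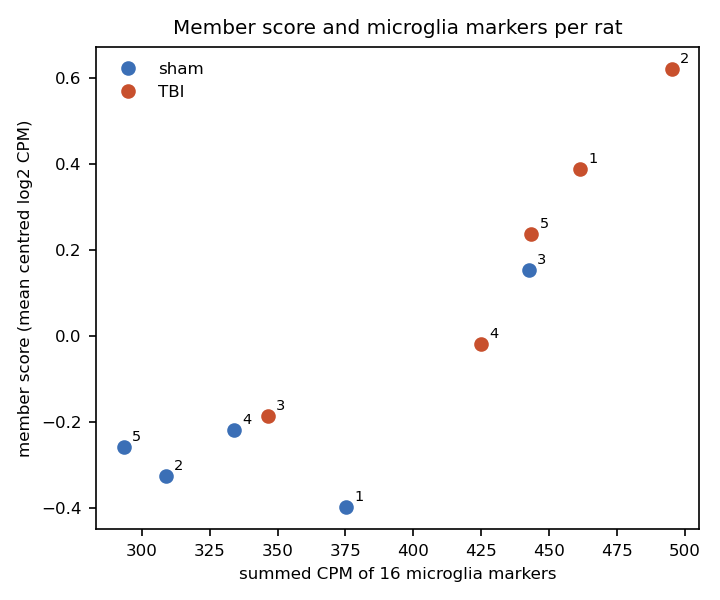
Score over the 44 members (y axis, mean centred log2 CPM) against the summed CPM of 16 microglia markers (x axis, which does not start at 0) in each of the 10 rats, numbered by replicate. Sham replicate 3 lies among TBI rats and TBI replicate 3 among sham rats on both axes.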

How the data were processed

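Messenger RNA of 5 sham and 5 TBI rats was sequenced as single reads of 36 bases. The methods give 3 controls for this profiling in one place and 5 in another, and the 5 of the labels were used. Per the labels and methods, BWA aligned the reads to rn4, and they were counted over transcripts with a custom script. The authors deposited raw counts per RefSeq RNA record, without normalization, although their methods name Ensembl transcripts. Use of strand was not stated, nor whether isoform rows share reads. Rows were named from a RefSeq table of another build. Of 32041 rows, 22431 with a total of at least 44 counts, the 30th percentile as in the study, were compared in edgeR 4.0.16 under R 4.3.3 (quasi-likelihood, robust, TMM) with Benjamini-Hochberg adjustment over all rows. CPM uses TMM-adjusted library sizes, and scores use a prior count of 2. Each library is 1 rat, and replicate numbers follow sample order and pair no rats. The fit was tested on simulated data. Per-rat values are given for the 12 members with the smallest p and for a fixed set of receptor chains, factors and effectors. Some genes of the fixed lists are not reported here by name. Members, lists and rules were chosen with earlier results of these data known. Alternatives were DESeq2 1.42.0, limma 3.58.1, other scalings and filters, a ribosomal RNA covariate, and leaving out rats. Figures were drawn with matplotlib 3.10.9.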

Additional observations from a re-analysis of the deposited data

Results flagged for a closer look

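Of 68 groups of 5 rats examined (named members and scores), 4 held a rat whose distance to its nearest neighbour exceeded 0.71 of the group's range, the critical value of Dixon's test, and chance gives about 3.4, or 1 in 20 groups. Sham replicate 3 had 6.24 CPM of Bst2, against 3.13 to 4.00 in the other sham rats. The same rat had a score of 0.11 over the genes of interferons, sensing and signalling (others -0.18 to -0.12) and of 0.10 over the further interferon-inducible genes (others -0.18 to -0.13). These lists vary together and are not independent. TBI replicate 4 had 41.7 CPM of Ifngr2, against 34.4 to 36.2 in the other TBI rats.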

How the results depend on the processing

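The count of members at an adjusted p of 0.05 was 0 in edgeR's quasi-likelihood test (20 at an unadjusted p under 0.05). DESeq2 gave 1 (beside 3 rows in all), the exact test run without robust estimation 1 (51 rows in all), total count scaling 7 (92 rows in all), dropping a single rat 0 to 1 (0 to 12 rows in all), and the count was 0 in the other alternatives. The 20, against 4.89% of all rows, became 31 with total count scaling, which called 16.8% of all rows higher, 10 with limma voom (against 4.70%), 10 without sham replicates 4 and 5, 6 with the ribosomal RNA covariate, and 9 to 25 when a single rat was dropped. The 9 pathway genes became 29 with total count scaling and 22 when only counts outside ribosomal RNA set the scale, which called 16.8% and 12.5% of all rows higher. They were 4 with voom (against 4.70% of all rows), 4 without sham replicates 4 and 5 (3.30%) and 0 with the covariate (2.45%). When a single rat was dropped they were 3 to 22, and the share over all rows 3.27% to 7.03%. The median log2 change of 0.46 was 0.95 with total count scaling, where the median of all rows was 0.50. The members without overlap numbered 1 to 8 when a rat was left out. The score difference of 0.42 was 0.44 with a prior count of 0.5.

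Signs that reversed belonged to members without a call. With total count scaling Ifnar1, Ifngr2 and Irf1 had log2 changes of 0.43, 0.40 and 0.50, and, with ribosomal RNA kept out of the totals, 0.072, 0.068 and 0.14. Stat2 had -0.085 with the covariate and -0.045 without sham replicates 4 and 5, where Irf1 had 0.0071. With a single rat dropped, Ifngr2 ranged from -0.14 to 0.0067, Irf1 from -0.10 to 0.047 and Ifit3 from -0.018 to 0.29. Total count scaling counts ribosomal RNA as library size, and the causes of the other changes were not tested. No paired analysis was possible because the replicate numbers follow sample order and pair no rats. Low counts, such as 71 for Isg20 over all libraries, limit what could be detected.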

Other observations

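Mx1 has 6 RNA records in the table, with 124 to 143 counts each. Whether the same reads were counted in several of these records is not stated in the sources used here. Their log2 changes ranged from 0.44 to 1.02, and 1 of the 6 had an unadjusted p under 0.05 in edgeR's quasi-likelihood test. The record described above was the one with the most counts, at 0.75. The 2 records of Ifnar1, with 6361 and 6323 counts, had log2 changes of -0.08 and -0.01.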
